A study of Mus musculus with 2 samples.

Results

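The genes described here make the proteins that copy DNA and bring a cell into S phase. They were followed in primary keratinocytes, the main cells of the epidermis, grown from newborn C57BL/6 mice. The set is 34 gene symbols, and a probe set was a member when its only platform gene symbol was on that list. Affymetrix reads a transcript with several short probes, and their joint reading is called a probe set. Of the 34 genes, 33 had at least 1 such probe set, 71 probe sets in all, among 18193 genes with a symbol of their own on the array. Chaf1a had none and was not analysed here.

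The study used 2 Affymetrix mouse arrays, 1 per culture. The culture labelled MED1-null came from mice with both Med1 alleles floxed and a K5Cre transgene, MED1epi-/- in the title, in which Cre is made where the keratin 5 promoter is active. The control culture is MED1flox/flox in its title and wild-type in its source label, so whether the control animals carried floxed alleles is not settled by the labels. MED1 belongs to Mediator, through which DNA-bound transcription factors reach RNA polymerase II. How many mice gave each culture is not given in the sources used here. With 1 array per group there were no replicates, so the design allows no test, and every ratio compares these 2 cultures only.

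DNA replication begins in G1, when the origin recognition complex, Cdc6 and Cdt1 load the ring of MCM proteins onto origins, a step called licensing. Cyclin E with its kinase and the E2F transcription factors then bring the cell into S phase. Cdc45 and GINS switch on the MCM helicase, the sliding clamp PCNA holds the polymerases on DNA, and ribonucleotide reductase, thymidylate synthase and thymidine kinase supply nucleotides. In the epidermis these proteins belong to the dividing basal layer and are lost as keratinocytes differentiate, and many of their genes are E2F targets.

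E2F binding words were looked for in the 250 bases before the transcription start, because many of the members are known E2F targets and most had ratios in the same direction here. RefSeq promoters of build GRCm38.p6 matched 29 of the 34 members, and Mcm4, Gmnn, Gins2, Ccne2 and Pole were not matched. The words TTTCCCGC, TTTCGCGC, TTTGCCGC and TTTGGCGC were searched on both strands. At least 1 word stood before 8 of the 29 members (27.6%), against 376 of 9434 measured genes with a promoter (3.99%) and 1.86% of all 32851 promoters of that length. These 5 promoters are shown because they hold the words before licensing factors, helicase subunits and the initiating polymerase. Capitals mark the words, read 5′ to 3′ on the strand of the gene.
Orc1, chr4:108579204-108579453, plus strand: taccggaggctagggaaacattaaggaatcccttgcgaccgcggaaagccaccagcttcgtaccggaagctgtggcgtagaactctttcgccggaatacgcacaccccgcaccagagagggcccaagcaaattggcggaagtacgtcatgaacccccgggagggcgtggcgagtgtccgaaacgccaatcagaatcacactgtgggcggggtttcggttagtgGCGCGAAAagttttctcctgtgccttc
Cdc6, chr11:98907901-98908150, plus strand: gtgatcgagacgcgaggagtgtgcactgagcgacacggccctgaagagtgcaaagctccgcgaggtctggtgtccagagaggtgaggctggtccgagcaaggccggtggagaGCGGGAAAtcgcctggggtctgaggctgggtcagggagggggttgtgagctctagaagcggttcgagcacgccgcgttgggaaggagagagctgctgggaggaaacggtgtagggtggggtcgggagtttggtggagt
Mcm5, chr8:75109259-75109508, plus strand: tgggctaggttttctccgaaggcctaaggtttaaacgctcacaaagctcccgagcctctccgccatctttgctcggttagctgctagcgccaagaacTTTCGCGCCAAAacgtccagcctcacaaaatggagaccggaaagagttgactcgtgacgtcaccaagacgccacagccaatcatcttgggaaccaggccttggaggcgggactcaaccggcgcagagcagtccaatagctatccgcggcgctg
Mcm6, chr1:128359706-128359955, minus strand: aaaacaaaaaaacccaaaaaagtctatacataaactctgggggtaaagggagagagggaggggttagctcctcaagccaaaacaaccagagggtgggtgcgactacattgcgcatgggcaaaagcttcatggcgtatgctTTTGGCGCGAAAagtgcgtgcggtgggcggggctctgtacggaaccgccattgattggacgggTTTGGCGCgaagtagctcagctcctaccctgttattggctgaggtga
Pola1, chrX:93632156-93632405, minus strand: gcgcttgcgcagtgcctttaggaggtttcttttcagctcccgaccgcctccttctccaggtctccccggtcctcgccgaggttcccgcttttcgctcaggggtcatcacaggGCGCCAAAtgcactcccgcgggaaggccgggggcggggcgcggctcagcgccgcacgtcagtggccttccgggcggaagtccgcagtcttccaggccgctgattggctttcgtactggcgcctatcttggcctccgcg

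In Mcm5 the capitals hold 2 words, on opposite strands, that overlap and begin 153 and 149 bases before the start. Mcm6 held 3 words, an overlapping pair at 110 and 106 bases and a single one at 47 bases. The word of Orc1 lay 27 bases before the start, and those of Cdc6 and Pola1 lay 138 bases before it. Mcm7, Rfc3 and Uhrf1 completed the 8. CCAAT, on either strand, stood before 18 of the 29 members (62.1%), against 40.1% of measured genes and 33.8% of all promoters, and overlapped no E2F word. A match of letters is a description of these windows and not a binding site.

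Signals were compared on a log2 scale, array labelled MED1-null minus control array, after values under the median of all probe sets (67.7) had been raised to that floor. Each gene was read by its brightest probe set, judged by the mean of both arrays. All 33 genes with a probe set reached the floor on at least 1 array, and Tyms did so in the culture labelled MED1-null alone. Over both arrays the mean signal of a member ran from 56.6 to 9757 with a median of 798.2, against 585.6 for all measured genes. Genes were not ranked by signal, since probe sets differ in how brightly they bind.

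By small folds, most genes of DNA replication were higher in the culture labelled MED1-null. Of the 33, 31 had a log2 ratio above 0 and 2 below, where 57.1% of 11621 measured genes were above 0. Tyms, at the floor in the culture labelled MED1-null alone, could only be above 0, and without it 30 of 32 were. The median log2 ratio was 0.45, or 1.36-fold, against 0.06 for all measured genes, and the interquartile range of the members was 0.33 to 0.66. Only Orc6 and Tk1 were at least 2-fold higher, with 1.63% of measured genes past that fold, and no member was at least 2-fold lower, against 2.23% of measured genes. At a smaller fold, 11 members were at least 1.5-fold higher, 33.3% of them against a background of 7.8%. Among genes that reached 4 times the floor on either array, 9 of 29 members were at least 1.5-fold higher, against 5.98% of all such genes. Fen1 alone was at least 1.5-fold lower, against 7.32% of measured genes. The other 21 lay within 1.5-fold. In bulk RNA a larger share of cells in S phase and more RNA per such cell cannot be told apart.

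**Figure D1:**
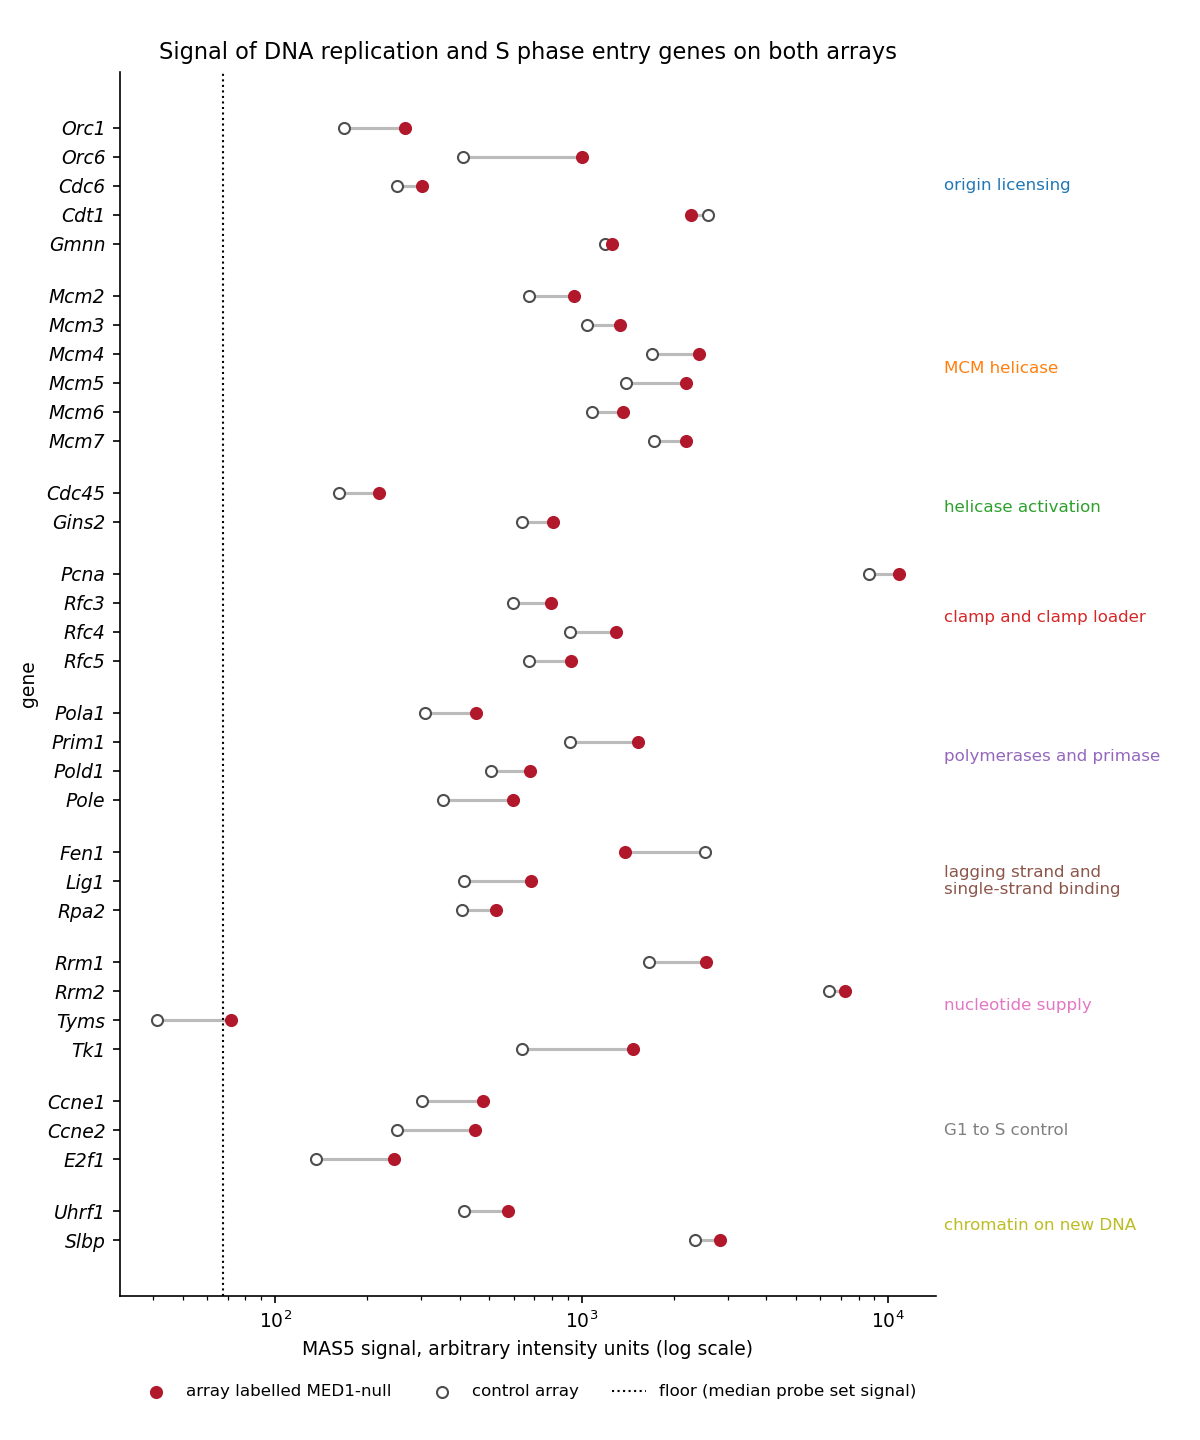
MAS5 signal in arbitrary intensity units (log axis) of the probe set used for each of the 33 genes, grouped by role. Filled points are the array labelled MED1-null, open points the control array, and the dotted line the floor of 67.7. The filled point lies right of the open point for every gene but Cdt1 and Fen1.

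**Figure D2:**
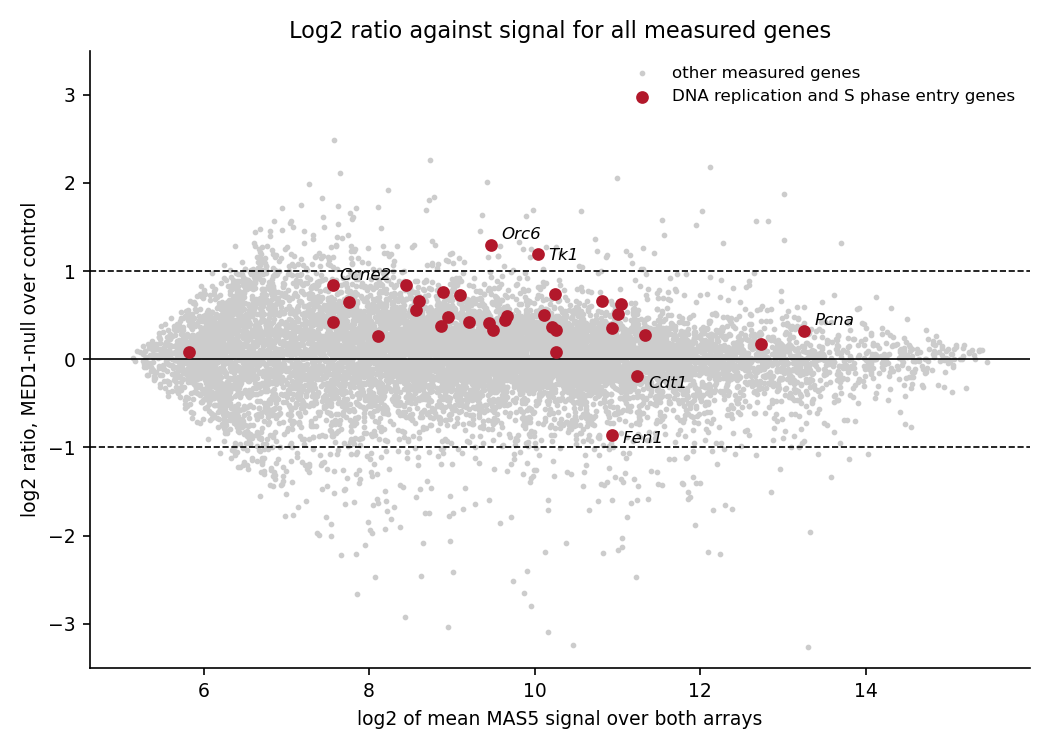
Log2 ratio (MED1-null over control) of each measured gene against log2 of its mean signal over both arrays. Red points are the 33 members, grey points the other measured genes (2 of them lie outside the plotted range), and dashed lines mark 2-fold. Members lie above 0 over the whole range of signal, apart from Cdt1 and Fen1.

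The licensing genes ran from -0.19 to 1.29 in log2 ratio. Orc6, the smallest subunit of the origin recognition complex, read 1005 on the array labelled MED1-null, against 410.6 on the control array. It was 2.45-fold higher, and 0.542% of all measured genes had a higher ratio. Orc6 has 1 probe set, so no other probe set could be set beside it. Orc1, the largest subunit, which binds ATP, read 264.7 on the array labelled MED1-null, against 168.2 on the control array, 1.57-fold higher. Its other probe set went the opposite way, at 139.4 on the array labelled MED1-null, against 181.8 on the control array. Cdc6, the loader that joins ORC at the origin, read 300.3 on the array labelled MED1-null, against 250.4 on the control array.

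Cdt1 and Gmnn differed little between the cultures. Cdt1 brings the MCM ring to the origin, and geminin, the product of Gmnn, binds Cdt1 and blocks it after S phase has begun. Cdt1 read 2268 on the array labelled MED1-null, against 2579 on the control array, a log2 ratio of -0.19. Its other probe set at the floor read 959.8 on the array labelled MED1-null, against 994.3 on the control array, also slightly lower. Gmnn read 1257 on the array labelled MED1-null, against 1190 on the control array, a log2 ratio of 0.08. These ratios lie near the 0.06 of all measured genes or below it, and within the spread between probe sets of the same gene, a pooled SD of 0.31 in log2 over 4916 genes. That SD says nothing of how animals or cultures vary.

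All 6 genes of the MCM ring, the helicase that unwinds DNA, were higher in the culture labelled MED1-null by the probe set used. By that probe set their log2 ratios ran from 0.33 for Mcm6 to 0.66 for Mcm5, with a median of 0.43. Averaged over the probe sets at the floor, they ran from 0.10 for Mcm2 to 0.64 for Mcm5. Mcm5 read 2195 on the array labelled MED1-null, against 1390 on the control array, 1.58-fold higher, and its other probe set at the floor gave a log2 ratio of 0.63. Mcm4 read 2418 on the array labelled MED1-null, against 1696 on the control array, 1.43-fold higher. Mcm2 read 946.1 on the array labelled MED1-null, against 674.0 on the control array, 1.40-fold higher.

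The order of the MCM genes depended on the probe set. Mcm7 read 2189 on the array labelled MED1-null, against 1718 on the control array, and all 4 of its probe sets gave log2 ratios above 0, from 0.13 to 0.35. Mcm3 read 1338 on the array labelled MED1-null, against 1040 on the control array, and Mcm6 read 1362 on the array labelled MED1-null, against 1084 on the control array. For Mcm4 and Mcm6 the other probe set at the floor barely differed, with log2 ratios of 0.12 and 0.09. Probe sets disagreed in direction for Mcm2 and Mcm3. The second probe set of Mcm2 read 562.3 on the array labelled MED1-null, against 686.1 on the control array. Of 5 probe sets for Mcm3, 4 were higher in the culture labelled MED1-null, with log2 ratios from 0.36 to 0.70, and the dimmest read 62.5 on that array, a value under the floor, against 146.7 on the control array.

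Cdc45 and Gins2 encode parts of the complex that turns the loaded ring into a working helicase. Cdc45 read 217.5 on the array labelled MED1-null, against 161.6 on the control array, 1.35-fold higher. Gins2 read 808.0 on the array labelled MED1-null, against 641.0 on the control array, 1.26-fold higher, and its second probe set gave a log2 ratio of 0.49.

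The clamp and its loader had similar ratios. Pcna, the sliding clamp, read 10834 on the array labelled MED1-null, against 8680 on the control array, 1.25-fold higher. The loader subunit gene Rfc4 read 1293 on the array labelled MED1-null, against 916.3 on the control array, and its partners Rfc5 and Rfc3 were 1.36-fold and 1.33-fold higher. The 4 genes lay between 0.32 and 0.50 in log2 ratio, and every probe set at the floor was higher in the culture labelled MED1-null.

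The polymerase genes had a higher median, 0.65 in log2 over 4 genes. Pole, the catalytic subunit of the leading strand polymerase, read 598.1 on the array labelled MED1-null, against 353.2 on the control array, 1.69-fold higher. Prim1, the primase that lays down RNA primers, read 1523 on the array labelled MED1-null, against 912.7 on the control array, and its 2 probe sets gave log2 ratios of 0.74 and 0.68. Pola1, the polymerase that extends those primers, read 452.8 on the array labelled MED1-null, against 307.1 on the control array, 1.47-fold higher. Pold1, the catalytic subunit of the lagging strand polymerase, read 678.9 on the array labelled MED1-null, against 506.1 on the control array. All 4 were thus higher, by 1.34-fold to 1.69-fold.

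By the probe sets used, genes that finish the lagging strand went both ways. Lig1, the ligase that seals Okazaki fragments, read 683.1 on the array labelled MED1-null, against 413.2 on the control array, 1.65-fold higher. Rpa2, a subunit of the protein that coats single-stranded DNA, read 526.9 on the array labelled MED1-null, against 406.2 on the control array. Its second probe set barely differed, at 375.2 on the array labelled MED1-null, against 370.1 on the control array. Fen1, the nuclease that trims the flaps of Okazaki fragments, gave opposite answers by its 2 probe sets. The brighter read 1390 on the array labelled MED1-null, against 2518 on the control array, 1.81-fold lower. The other read 1170 on the array labelled MED1-null, against 972.5 on the control array, a log2 ratio of 0.27. Since the 2 disagree, the direction of Fen1 is not settled by these arrays. The brighter carries a suffix that Affymetrix gives to probe sets with sequence shared between transcripts. Suffixes of that kind also stand on the probe sets used for Mcm3, Mcm5, Mcm7, Gins2, Pold1, Rrm2 and Ccne1, all of them higher.

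Of the nucleotide supply genes, Tk1 differed most. Tk1, the thymidine kinase of dividing cells, read 1467 on the array labelled MED1-null, against 638.8 on the control array, 2.30-fold higher, and 0.843% of measured genes had a higher ratio. Rrm1, the large subunit of ribonucleotide reductase, read 2550 on the array labelled MED1-null, against 1657 on the control array, 1.54-fold higher, and its second bright probe set gave a log2 ratio of 0.68. The small subunit gene Rrm2 depended on the probe set. Its brightest, again of the shared-sequence kind, read 7208 on the array labelled MED1-null, against 6412 on the control array, 1.12-fold higher. Another read 3870 on the array labelled MED1-null, against 2684 on the control array, and the last read 3232 on the array labelled MED1-null, against 2130 on the control array.

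Tyms, thymidylate synthase, was at the edge of measurement by the rule. Its brightest probe set with no other symbol read 71.9 on the array labelled MED1-null, against 41.2, below the floor, on the control array, at least 1.06-fold higher. A further probe set is annotated to Tyms together with the pseudogene Tyms-ps and was therefore no member. It read 783.5 on the array labelled MED1-null, against 472.5 on the control array, 1.66-fold higher, and the signals of the gene and the pseudogene cannot be separated in it.

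The 3 genes of S phase entry had a median log2 ratio of 0.84 by the probe sets used. Ccne2 and Ccne1 encode the E cyclins that activate CDK2, and E2f1 encodes a transcription factor held in check by the retinoblastoma protein. Ccne2 read 449.7 on the array labelled MED1-null, against 250 on the control array, 1.80-fold higher. E2f1 read 243.5 on the array labelled MED1-null, against 135.7 on the control array, 1.79-fold higher. Ccne1 read 477.0 on the array labelled MED1-null, against 301.6 on the control array, 1.58-fold higher. The second probe sets of E2f1 and Ccne1 gave smaller log2 ratios, 0.38 and 0.24. Those used carry suffixes, that of Ccne1 of the shared-sequence kind, and without suffixed probe sets neither gene was 1.5-fold apart. No reading of the 3 was above the 477.0 of Ccne1, and with the floor raised to 434.6 Ccne2 had a log2 ratio of 0.05 and Ccne1 0.13.

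Of the chromatin genes, Uhrf1, which guides maintenance methylation of new DNA, read 575.2 on the array labelled MED1-null, against 413.0 on the control array, 1.39-fold higher. Slbp, which binds the stem-loop of histone mRNAs, read 2836 on the array labelled MED1-null, against 2338 on the control array, 1.21-fold higher. Both were higher by every probe set at the floor. The second of Slbp read 118.1 on the array labelled MED1-null, against 31.9, below the floor, on the control array. It could therefore only be higher.

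**Figure D3:**
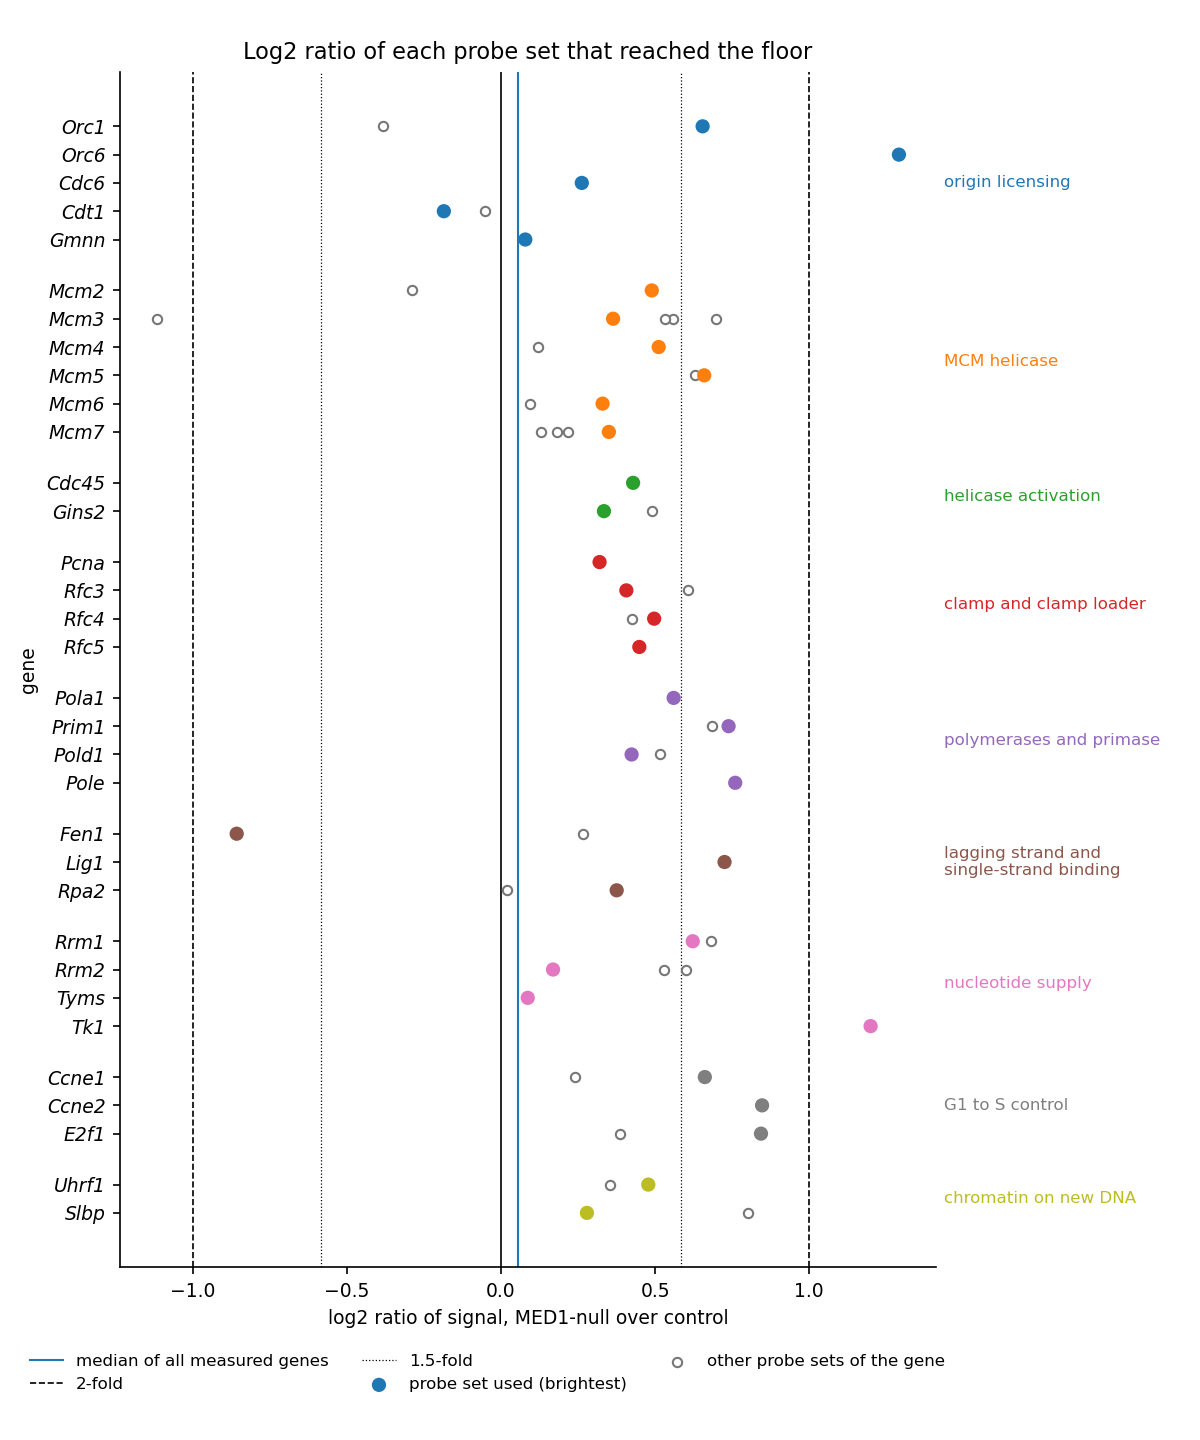
Log2 ratio (MED1-null over control) of every member probe set that reached the floor on either array, by gene and role. Filled points are the probe sets used and open points the other probe sets of the same gene. Of the 60 points 54 lie right of 0, and the points of Orc1, Mcm2, Mcm3 and Fen1 fall on both sides.

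Across probe sets, 60 of the 71 reached the floor on either array. The log2 ratio of these 60 was above 0 in 54 and below it in 6, with a median of 0.43. Of the 60, 57 reached the floor on both arrays, and the direction of the rest was fixed by the array on which they reached it. Among all probe sets of single genes at the floor, 57.3% were above 0. More than 1 probe set reached the floor for 21 members, and for 17 of these all pointed the same way. The 17 include Slbp, whose second probe set reached the floor on 1 array alone. The probe sets of Orc1, Mcm2, Mcm3 and Fen1 did not all point the same way. Members with and without an E2F word had similar medians. The 8 members with a word had a median log2 ratio of 0.44, from 0.26 to 0.66, and the 20 measured members without one a median of 0.44, from -0.86 to 1.29. Orc6 and Tk1 were among the members with none of these words in the window. Only windows before the listed starts were searched, so a member counted as without a word may hold one before another start.

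Other genes of the pathway were read from 6 lists, of which 112 genes were measured. Of these, 91 were above 0 and 21 below, with a median log2 ratio of 0.25, and 20 were at least 1.5-fold higher and 3 lower. Over all measured genes 57.1% were above 0, 7.8% at least 1.5-fold higher and 7.32% lower. The lists differed in their medians. Replication stress and S phase repair genes had the highest, 0.55. By the probe set used, all 15 measured genes were above 0 and 6 at least 1.5-fold higher. The nuclease gene Exo1 read 315.0 on the array labelled MED1-null, against 160.5 on the control array, 1.96-fold higher. Fancd2, of the Fanconi anaemia pathway, was 1.95-fold higher and Brca2, a gene of homologous recombination, 1.87-fold. Fancd2 and Rad18 were among the genes of this list with probe sets on both sides of 0.

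The other fork, polymerase and clamp loader genes had a median log2 ratio of 0.46, and 8 of 25 were at least 1.5-fold higher and none lower. Chtf18, of an alternative clamp loader, read 153.5 on the array labelled MED1-null, against 75.1 on the control array. Pold3, a polymerase delta subunit gene, read 605.4 on the array labelled MED1-null, against 296.3 on the control array. Clspn and Timeless, which hold helicase and polymerase together and signal stalled forks, were 1.88-fold and 1.85-fold higher. The probe sets of Pold3 ran from 0.19 to 1.03 in log2 ratio.

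**Figure D4:**
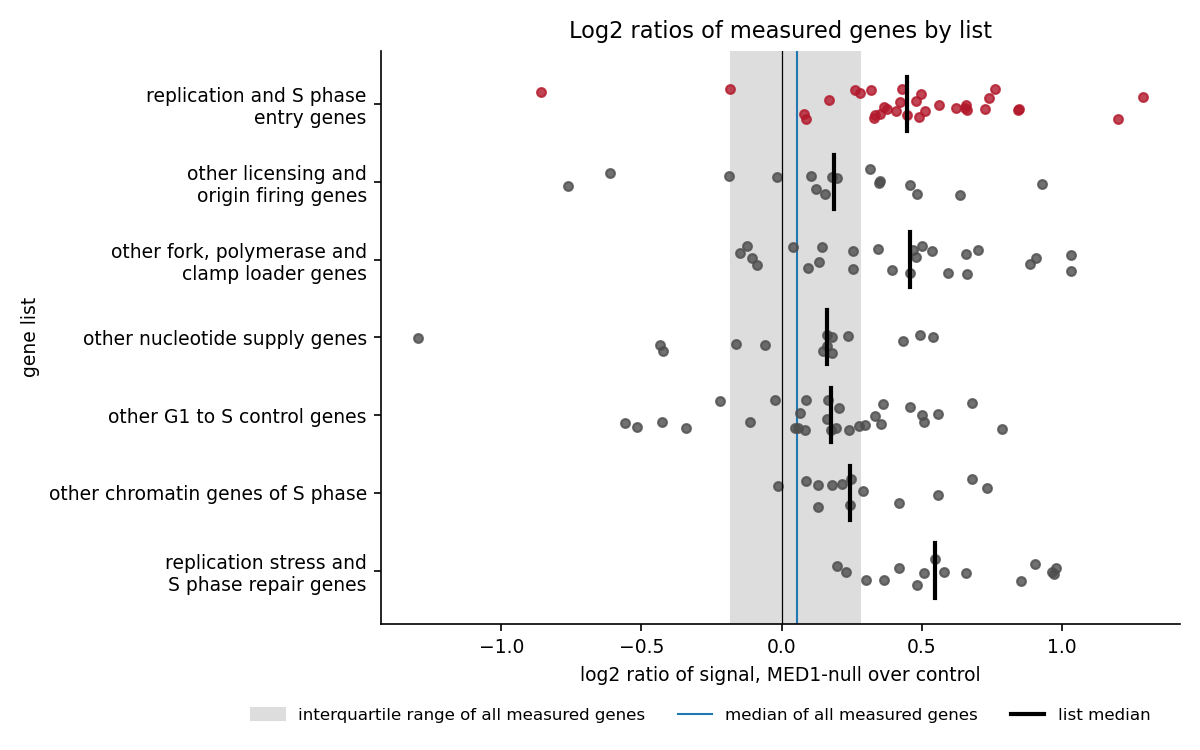
Log2 ratio (MED1-null over control) of each measured gene in the set described here (red) and in 6 lists of related genes (grey), with list medians as black bars. The shaded band is the interquartile range of all measured genes. The medians of the red set, of the other fork genes and of the repair genes lie right of the band, at 0.45, 0.46 and 0.55.

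The medians of the remaining lists lay closer to that of the whole array. Other licensing and origin firing genes had a median log2 ratio of 0.19, with 12 of 16 genes above 0. Of the 16, 2 passed 1.5-fold upward and 2 downward. Cdc7, the kinase that fires origins, read 379.1 on the array labelled MED1-null, against 198.9 on the control array, and Mcm8 was 1.56-fold higher. Recql4 read 116.8 on the array labelled MED1-null, against 197.9 on the control array, and Ticrr, whose 61.1 on the array labelled MED1-null is a value under the floor, read 103.4 on the control array. Probe sets of Ticrr disagreed, from -0.61 to 0.60, and those of Cdc7 ran from 0.03 to 0.93.

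Other genes of G1 to S control had a median log2 ratio of 0.18 over 29 genes, 22 of them above 0. Cdc25a, the phosphatase that activates CDK2, read 894.5 on the array labelled MED1-null, against 518.5 on the control array, and cyclin D1, Ccnd1, was 1.60-fold higher. E2f7, a repressor of the E2F family, was 1.47-fold higher, and the CDK inhibitor gene Cdkn2b read 116.9 on the array labelled MED1-null, against 172.1 on the control array. Chromatin genes of S phase had a median of 0.24 over 13 genes, 12 of them above 0, where 57.1% of all measured genes were. Among the 13 were the maintenance methyltransferase Dnmt1 (1.66-fold higher) and Chaf1b (1.60-fold), which encodes a partner of the Chaf1a product. Nasp, a histone chaperone gene, was 1.47-fold higher and Asf1a 1.34-fold.

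Other nucleotide supply genes did not share the direction of Tk1 and Rrm1 throughout. Their median log2 ratio was 0.16 over 14 genes, with 9 above 0 and 5 below, a share near the 57.1% of all genes, and none at least 1.5-fold higher. Mthfd2, a mitochondrial folate enzyme, read 801.1 on the array labelled MED1-null, against 1970 on the control array, 2.46-fold lower. Shmt2, of the same mitochondrial pathway, was 1.35-fold lower. Mthfd1, the cytosolic folate enzyme, was 1.45-fold higher, with probe sets on both sides of 0. Dut, the dUTPase, was 1.41-fold higher, with probe sets from 0.06 to 0.49 in log2 ratio.

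Several features of the cultures moved with the label. Med1 itself read 1039 on the array labelled MED1-null, against 462.7 on the control array, and the 6 of its probe sets that reached the floor were all higher in the culture labelled MED1-null. Those that read 182.7 and 112.4 there were under the floor on the control array, at 40.6 and 13.8, and could only be higher. Which exons were deleted and where the probe sets lie are not given in the sources used here. The Med1 readings therefore check nothing about the deletion, and directions above are those of the labels. Xist read 55.7 on the array labelled MED1-null, against 5461 on the control array, while Y-linked Eif2s3y read 2164 on the array labelled MED1-null, against 4.2 on the control array, and Kdm5d and Uty were at least 5.63-fold and 3.27-fold higher. Sex-linked transcripts thus differed along with the label. The 3′ over 5′ signal ratio of Gapdh, a sign of RNA quality, was 0.767 on the array labelled MED1-null, against 0.762 on the control array. The part of sex in the ratios was not tested and, with 1 array per group, cannot be told apart from that of genotype.

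Markers of cell types, summed over the measured genes of each list, also differed. By the probe set used, all 11 measured basal keratinocyte markers were higher in the culture labelled MED1-null, where 57.1% of all measured genes were. Their summed signal was 198785 on that array, against 164702 on the control array. Krt5, Krt14, Trp63 and Col17a1 had log2 ratios of 0.26, 0.16, 0.59 and 0.59, and probe sets of Itgb1 and Dst fell on both sides of 0. Krt14, the basal keratin that marks these cells, read 36849 on the array labelled MED1-null, against 32905 on the control array, and Krt15 was below the floor on both. Of 11 measured markers of differentiating keratinocytes 8 were higher, 6 of them by at least 1.5-fold, against 57.1% and 7.8% of all measured genes. Another 2 were at least 1.5-fold lower, against 7.32%, and the median log2 ratio of the 11 was 0.80. The summed signal of the 11, most of it Sbsn, was 46881 on the array labelled MED1-null, against 46674 on the control array. Calml3 and Dsg1a were 2.40-fold and 2.24-fold higher, Tgm1 was 1.74-fold lower, and Sbsn differed 1.03-fold.

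Of 9 measured fibroblast markers 8 were lower in the culture labelled MED1-null, with a summed signal of 2466 against 6050 on the control array, most of it Vim and Sparc (2.66-fold and 2.62-fold lower). Of the 8, Col3a1, Dcn, Thy1 and Twist2 reached 67.7 in the control culture only, so they could only be lower. Col1a1, Lum, Pdgfrb and Postn were below the floor on both arrays. Of 11 measured melanocyte markers 9 were lower, again beside 4984 of all 11621 measured genes. The summed signal of the 11 was 21375 on the array labelled MED1-null, against 29387 on the control array. Tyrp1 and Dct were 1.39-fold and 1.15-fold lower, Gpnmb and Kit 3.09-fold and 2.99-fold lower. Of 12 leukocyte and 8 endothelial markers, 4 and 2 were measured, and Ptprc, Cd207, Pecam1 and Cdh5 were below the floor on both arrays. Cd68 was 1.14-fold higher, and Adgre1 and Kdr read below the floor on 1 array each. Csf1r and Egfl7 were 1.40-fold and 1.52-fold higher, each with probe sets on both sides of 0. The part of cell makeup in the ratios of the replication genes was not tested.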

How the data were processed

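Per the submitters' processing notes the software step was MAS5, and the design text names GeneChip Operating Software, with no version given in the sources used here. The file the authors deposited holds a linear signal intensity for each probe set of 2 arrays. Both had been scaled alike: with the top and bottom 2% left out, each array's mean was 500.004. MAS5 subtracts mismatch signal, which makes low values noisy, so values under 67.7, the median of non-control probe sets over both arrays, were raised to it before log2 was taken. Of 45101 probe sets, 34945 had 1 symbol in GEO's platform annotation, and 0 symbols differed from the RefSeq table of GRCm38.p6. Groups came from the genotype labels. Counts at 2-fold and 1.5-fold replaced tests, since each group has 1 array. The 2-fold count was tested on simulated data with differences larger than those of any member, and the 1.5-fold count was not tested.

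The members and lists were chosen with earlier results of these data known. All members were named. Of each related list the 4 genes with log2 ratio farthest from 0 were named, of each marker list the 2 farthest and the 2 brightest, and Med1, Xist and Y-linked genes as checks. In the list of repair genes 1 gene that this rule names is not reported here. Other genes named as below the floor, or by their probe sets, were chosen after their values were seen. Alternatives were 3 floors, 3 rescalings, 2 choices of probe set and a filter on dim genes. Python 3.11.15, pandas 2.3.3 and statsmodels 0.14.6 were used.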

Additional observations from a re-analysis of the deposited data

How the results depend on the processing

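No paired analysis was possible because each group has 1 array, and no replicate could be left out. Under all 9 alternatives and 1 chosen after seeing the data (Tyms read by the probe set it shares with its pseudogene), the median log2 ratio of the members stayed between 0.38 and 0.50, and Orc6 and Tk1 stayed the only members at least 2-fold higher. The number at least 1.5-fold higher was 6 of 28 with the floor at 434.6, where several dim members lie near the floor and 3.71% of all measured genes passed that fold. Lowering the floor to the 25th percentile or dropping it gave 12 each, where 15.6% and 20.3% of all genes passed, and the other settings gave 9 to 12. The number at least 1.5-fold lower became 0 when probe sets were averaged, where Fen1 had a log2 ratio of -0.30. It also became 0 when every suffixed probe set was left out, where Fen1 had no probe set left. That setting dropped suffixes of other kinds along with the shared-sequence kind. The other Fen1 probe set, with a log2 ratio of 0.27, was dropped for a suffix of another kind. No member at least 1.5-fold apart changed sign in these settings, none of which read Fen1 by that probe set alone. A lowess rescaling put 5.74% of measured genes at least 1.5-fold higher and 8.83% lower, against 7.8% and 7.32% before it, and 9 members at least 1.5-fold higher. The most any rescaling moved the median of all genes was -0.06. The number of arrays limits every value. With the floor at 434.6, 28 of the 33 members were measured, and the log2 ratios of Ccne1, Ccne2 and Pola1, whose control signals lie under it, were 0.13, 0.05 and 0.06.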
